A study of Homo sapiens with 6 samples.

Results

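The ZNF genes followed here, most of which encode C2H2 zinc finger proteins, were measured in U87 cells, an established human glioblastoma cell line. They are the genes whose symbol is ZNF followed by a number alone and whose raw count averaged at least 400 over 6 RNA-seq libraries. Of 475 such symbols among 27192 listed genes, 169 passed that minimum, and all 169 were among the 14078 genes tested. The members were therefore selected by their abundance over both groups together. Near the minimum the difference between the groups can decide membership: 11 members averaged under 400 counts in one group, 4 of them in siLINC00152 and 7 in siGL2 libraries, and of these 11, 6 rose, 3 fell and 2 were not called. Cells of the siLINC00152 group received 2 siRNAs against the long noncoding RNA LINC00152, given in combination, and cells of the siGL2 group received siGL2, the control siRNA. Both groups were transfected with RNAiMAX in 2 rounds 24 hours apart and harvested 24 hours after the second, and polyadenylated RNA was sequenced from 3 libraries per group, A, B and C. The comparison asks how transcript levels differ in U87 cells depleted of LINC00152. The labels do not say that the libraries came from separate cultures, so p-values measure the spread between these libraries, which may be technical.

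C2H2 zinc finger proteins form the largest family of transcription factors in humans, and arrays of fingers let each protein read its own DNA sequence. A large branch also carries a KRAB domain, which binds the corepressor TRIM28 (KAP1). TRIM28 in turn brings in SETDB1, which methylates histone H3 at lysine 9, and HP1 proteins (CBX1, CBX3 and CBX5), and many KRAB proteins silence transposable elements in this way. KRAB zinc finger genes arose by repeated local duplication, and many lie side by side on chromosome 19. The family is broader than its best known branch: some members carry a SCAN domain for dimerisation, and others bind RNA, ribosomes or chromatin complexes with few fingers or none.

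The promoters of 4 members are shown because these genes had the 3 largest rises and the largest fall after knockdown and therefore mark the extremes of the response. Each window holds the 250 bases before the gene start in RefSeq (GRCh38.p14), written 5′ to 3′ on the gene's strand. Capitals mark matches on either strand to CCGGAAG (the ETS family core), GGGCGG (GC box), CCAAT (bound by NF-Y, and called a CCAAT box), TATAAA (known as the TATA box) or TGACGTCA (cyclic AMP response element), and matches were allowed to overlap.
ZNF608, chr5:124748825-124749074, minus strand: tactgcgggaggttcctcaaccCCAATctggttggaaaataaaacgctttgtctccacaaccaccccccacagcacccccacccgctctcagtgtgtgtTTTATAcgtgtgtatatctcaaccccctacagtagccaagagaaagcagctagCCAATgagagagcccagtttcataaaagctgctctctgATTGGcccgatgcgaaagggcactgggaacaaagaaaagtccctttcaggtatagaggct
ZNF267, chr16:31873557-31873806, plus strand: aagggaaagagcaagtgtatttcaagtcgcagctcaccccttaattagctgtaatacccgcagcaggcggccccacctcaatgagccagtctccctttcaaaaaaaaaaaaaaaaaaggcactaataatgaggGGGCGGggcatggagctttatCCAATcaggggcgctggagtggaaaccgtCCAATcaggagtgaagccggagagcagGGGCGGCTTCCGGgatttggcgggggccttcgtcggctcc
ZNF548, chr19:57389604-57389853, plus strand: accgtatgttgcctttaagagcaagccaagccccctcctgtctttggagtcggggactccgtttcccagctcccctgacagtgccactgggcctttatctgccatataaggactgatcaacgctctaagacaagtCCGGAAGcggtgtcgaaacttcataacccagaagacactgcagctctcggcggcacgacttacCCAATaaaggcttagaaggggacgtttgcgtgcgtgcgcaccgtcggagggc
ZNF367, chr9:96418371-96418620, minus strand: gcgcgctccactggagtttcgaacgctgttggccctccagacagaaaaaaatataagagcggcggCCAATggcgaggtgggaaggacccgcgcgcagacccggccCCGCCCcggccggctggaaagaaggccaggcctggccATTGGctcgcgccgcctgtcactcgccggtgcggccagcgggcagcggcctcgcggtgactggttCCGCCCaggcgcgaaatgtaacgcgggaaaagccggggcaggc

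The ZNF608 window held 3 CCAAT boxes and a TATA box, and the ZNF267 window held 2 CCAAT boxes, 2 GC boxes and an ETS core. ZNF548 had an ETS core and a CCAAT box, and ZNF367, which fell, had 2 CCAAT boxes and 2 GC boxes. Windows were found for 147 of the 169 members. The ETS core occurred in 34.7% of them, in 17.9% of the 7395 windows of genes with a mean count of at least 400, and in 8.82% of all 27305 windows in the table. CCAAT occurred in 52.7% of the 74 windows of members with a KRAB domain and in 28.8% of the 73 without one, beside 35.4% of the abundant genes. The ETS core was in 40.5% of the windows with KRAB and 28.8% of those without. Between members that rose and members that fell, the ETS core was in 34.7% of 72 and 27.3% of 22 windows, and CCAAT in 38.9% and 40.9%. The GC box occurred in 61.2% of member windows and 69.2% of those of abundant genes, the TATA box in 2.72% and 4.52%, and the cyclic AMP element in 4.76% and 3.15%. These matches describe the letters in the windows and were not related to any binding measurement.

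Levels are given as CPM, counts per 1000000 library counts after scaling by the TMM method, and log2 fold changes are siLINC00152 over siGL2 with their standard error (SE). Library totals ranged over 41963120 to 46234763 counts, at which 3 counts correspond to 0.0649 to 0.0715 CPM. The siGL2 library A differed from B and C by a chi-square per degree of freedom of 10.9 and 13.7, beside 2.91 between B and C and 3.07 to 5.79 among siLINC00152 libraries, and its part in the results was read by leaving it out. LINC00152 had 2.78, 2.67 and 2.56 CPM in siLINC00152 libraries, against 14.98, 14.1 and 16.4 CPM in siGL2 libraries, and was thus at 17.6% of its siGL2 level (edgeR quasi-likelihood test, adjusted p = 4.55e-15). Of its 75-base stretches 20.7% are shared with another gene, mainly MIR4435-2HG. Of the markers of neural and glioma cells, VIM, CD44 and NES averaged 6866, 2179 and 31.5 CPM in siLINC00152 libraries and 8977, 2696 and 38.3 CPM in siGL2 libraries, and all 3 fell. OLIG2 averaged 0.437 and 0.541 CPM in siLINC00152 and siGL2 libraries, GFAP 0.104 and 0.154 CPM, S100B 0 and 0.0148 CPM, and SOX2 0.024 and 0.023 CPM. GFAP and S100B, which mark astrocytes, and SOX2 were thus near 0, while NES was expressed. Of the markers of other cell types, PTPRC and RBFOX3 averaged under 0.0649 CPM in both groups, EPCAM 1.24 and 1.24 CPM, PECAM1 1.01 and 1.86 CPM and MBP 0.526 and 0.573 CPM; their part in the results was not tested.

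Abundant ZNF genes moved mostly upward after LINC00152 knockdown, by small amounts. In all, 86 of the 169 rose (50.9%) and 26 fell (15.4%) at an adjusted p under 0.05, and 57 did not pass (edgeR quasi-likelihood test, Benjamini-Hochberg over all tested genes). The 112 calls are 66.3% of the members, which is near the 64.3% called over all tested genes and under the 72.4% called among the 9370 tested genes with a mean count of at least 400. Rises and falls were less evenly shared than in those backgrounds, where 32.2% rose and 32.2% fell over all tested genes, and 37.0% rose and 35.4% fell among the abundant ones. The median log2 fold change of the members was 0.15, with quartiles of -0.01 and 0.34 and a range of -0.89 to 1.64, beside a median of -0.00 over all tested genes and 0.00 over abundant genes. Scaling by library size alone left 68 members higher and 37 lower and a median of 0.08, while the median of all genes moved to -0.07. Without siGL2 library A, 90 members rose and 27 fell. In bulk RNA, fewer cells of a type and less RNA per cell cannot be told apart.

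Summed over the 169 members, the scaled level was 5714, 5776 and 5835 CPM in siLINC00152 libraries A, B and C, against 5231, 5091 and 5098 CPM in siGL2 libraries. Every siLINC00152 library lay above every siGL2 library, and the mean sum differed by 12.4%. The members were also read as a share of raw library counts, which is scaling by library size alone. They took 0.559%, 0.564% and 0.568% in siLINC00152 libraries and 0.534%, 0.522% and 0.521% in siGL2 libraries. On this share the groups still did not overlap, but the relative difference was smaller than 12.4%. The TMM factors were lower in every siLINC00152 library than in every siGL2 library, which widened the difference in CPM. The groups did not overlap in CPM for 114 members (67.5%), beside 67.7% of all tested genes and 75.0% of abundant genes. These were 82 of the 86 members that rose, 24 of the 26 that fell and 8 of the 57 that did not pass. The median log2 fold change was 0.34 for members that rose and -0.33 for those that fell, and members that did not pass ranged from -0.14 to 0.18 with a median SE over all members of 0.06.

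Large changes were few. Of the members, 15 rose at least 1.5-fold (8.88%), beside 9.53% of all tested genes and 7.72% of abundant genes, and 2 fell at least 1.5-fold (1.18%), beside 10.4% and 7.59%. Only ZNF608 and ZNF267 rose at least 2-fold, where the backgrounds are 3.08% and 1.82%. No member fell at least 2-fold, beside 3.53% of all tested and 1.91% of abundant genes.

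**Figure D1:**
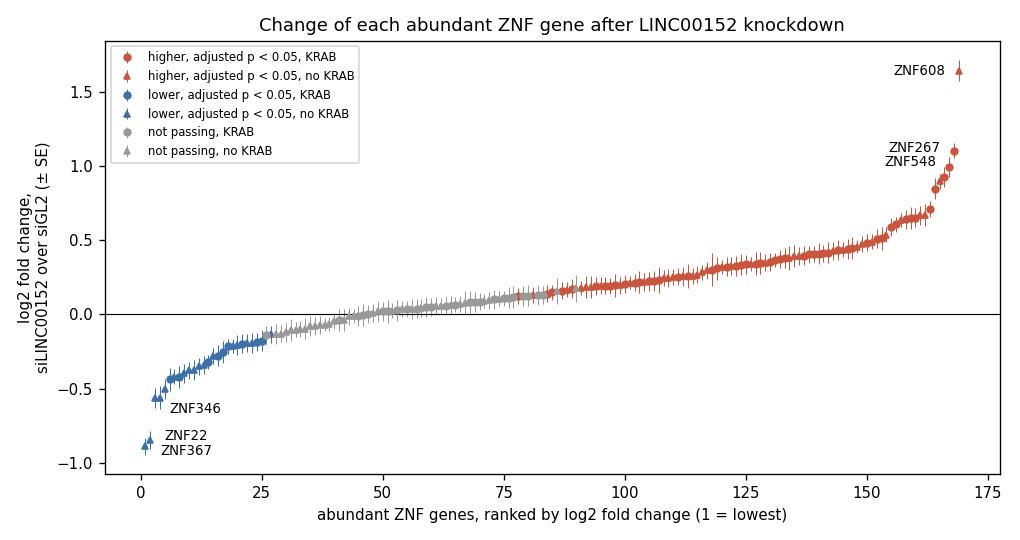
Log2 fold change of each of the 169 abundant ZNF genes (vertical axis, siLINC00152 over siGL2, with SE bars) in rank order (horizontal axis). Red marks the 86 that rose, blue the 26 that fell and grey the 57 that did not pass an adjusted p of 0.05; circles are members with a KRAB domain and triangles members without one.

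Among the members, ZNF608 had the largest rise. It averaged 884 raw counts in siLINC00152 and 301 in siGL2 libraries, and so passed the minimum of 400 only through the group in which it is high. It is a paralog of ZNF609, and its mouse counterpart represses the recombination-activating genes in thymocytes. Its level was 20.8, 20.8 and 21.7 CPM in siLINC00152 libraries, against 7.21, 6.62 and 6.43 CPM in siGL2 libraries. The groups were far apart and tight, and the log2 fold change was 1.64 ± 0.07 (SE, n = 3 per group), or 3.12-fold (edgeR adjusted p = 3.98e-14). Its paralog ZNF609, which in mouse cortex works with the cohesin loader NIPBL and the Integrator complex, had 64.9, 60.8 and 62.2 CPM in siLINC00152 libraries and 54.3, 46.2 and 47.1 CPM in siGL2 libraries. It rose as well, by 0.35 ± 0.06 (edgeR adjusted p = 2.17e-05), with no overlap between the groups.

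Of the 15 members that rose at least 1.5-fold, 10 carry a KRAB domain. ZNF267, which had the largest rise among them, had 52.6, 56.0 and 57.2 CPM in siLINC00152 libraries and 26.1, 25.05 and 26.01 CPM in siGL2 libraries. All siLINC00152 libraries were thus about double the siGL2 ones, and the log2 fold change was 1.10 ± 0.05 (2.15-fold, edgeR adjusted p = 2.61e-13). ZNF548 followed with 22.4, 21.2 and 21.6 CPM in siLINC00152 libraries and 10.4, 11.8 and 10.5 CPM in siGL2 libraries, a change of 0.99 ± 0.07 (edgeR adjusted p = 4.89e-11). ZNF841 had 39.9, 39.6 and 40.9 CPM in siLINC00152 libraries and 24.0, 19.7 and 19.7 CPM in siGL2 libraries, so the siGL2 library A was the nearest to the siLINC00152 group, and the change was 0.93 ± 0.07 (edgeR adjusted p = 1.61e-10). The KRAB genes ZNF273, ZNF621, ZNF417, ZNF138 and ZNF160 rose by 0.85, 0.71, 0.65, 0.65 and 0.64, each without overlap between the groups. ZNF273 and ZNF138 averaged 306 and 368 raw counts in siGL2 libraries, under the minimum of 400. ZNF417 shares 30.4% of its 75-base stretches with other genes, so the division of its reads is uncertain.

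Members without KRAB among the largest rises include 3 regulators with described partners. ZNF652 binds DNA together with the corepressor CBFA2T3, and had 60.3, 62.4 and 61.5 CPM in siLINC00152 libraries against 34.8, 32.9 and 31.2 CPM in siGL2 libraries. Its groups were well separated, and its log2 fold change was 0.90 ± 0.05 (edgeR adjusted p = 4.99e-12). ZNF462, a many-fingered protein needed for brain development in which 33 fingers were counted, the most of any member, had 46.5, 44.0 and 51.1 CPM in siLINC00152 libraries and 33.3, 28.98 and 26.7 CPM in siGL2 libraries. Both groups of ZNF462 were spread, yet they did not overlap, and it rose by 0.67 ± 0.07 (edgeR adjusted p = 3.15e-07). ZNF281, a MYC partner linked to pluripotency and epithelial-mesenchymal transition, had 63.7, 64.2 and 64.9 CPM in siLINC00152 libraries and 41.2, 41.3 and 41.4 CPM in siGL2 libraries. Its replicates were among the closest shown here, and it rose by 0.64 ± 0.05 (edgeR adjusted p = 1.98e-10). ZNF117, a finger protein without KRAB whose locus neighbours the endogenous retroviral gene ERV3-1, rose by 0.67 ± 0.07, with 23.9, 25.3 and 28.1 CPM in siLINC00152 libraries and 16.6, 15.4 and 16.7 CPM in siGL2 libraries.

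**Figure D2:**
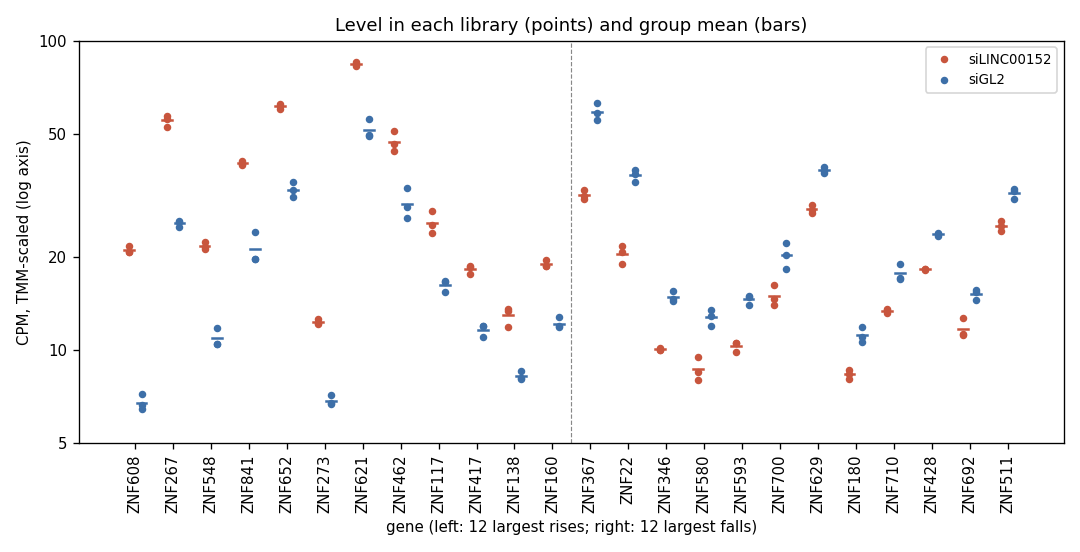
CPM of each library (vertical axis, log scale; points) and group means (bars) for the 12 largest rises, left of the dashed line, and the 12 largest falls, right of it, siLINC00152 in red beside siGL2 in blue. The groups do not overlap for any of the 24 genes; ZNF608 stands at 20.8 to 21.7 CPM in siLINC00152 libraries and 6.43 to 7.21 CPM in siGL2 libraries.

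The members were then read by whether they belong to the KRAB branch. As background, 32.2% rose and 32.2% fell over all tested genes, and 37.0% rose and 35.4% fell among abundant genes. A KRAB domain was found in 85 members: 51 rose (60.0%), 9 fell (10.6%), and 25 were not called. Their median log2 fold change was 0.20. It was 0.128 when libraries were scaled by their size alone and 0.190 without siGL2 library A. Of the 84 members without KRAB, 35 rose (41.7%), 17 fell (20.2%), and 32 were not called. Their median was 0.07. It was -0.000733 when libraries were scaled by their size alone, 0.108 without siGL2 library A and 0.129 at a minimum mean count of 800. Scaling by library size alone also moved the median of all tested genes, to -0.07. The summed level of the KRAB members was 2051, 2073 and 2092 CPM in siLINC00152 libraries and 1786, 1754 and 1747 CPM in siGL2 libraries, a mean 17.6% higher. For the members without KRAB the sums were 3663, 3703 and 3743 CPM in siLINC00152 libraries and 3446, 3337 and 3351 CPM in siGL2 libraries, 9.63% higher. Neither pair of sums overlapped between the groups on this scale, and the difference between the branches was not tested. The TMM factors widened both differences, as they did for the sum over all members. Sums also weigh abundant genes most, such as ZNF664 and ZNF395, both without KRAB, whereas medians count each gene alike. The 9 KRAB members that fell were ZNF700, ZNF180, ZNF175, ZNF440, ZNF250, ZNF12, ZNF584, ZNF263 and ZNF101, by -0.44 to -0.18.

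**Figure D3:**
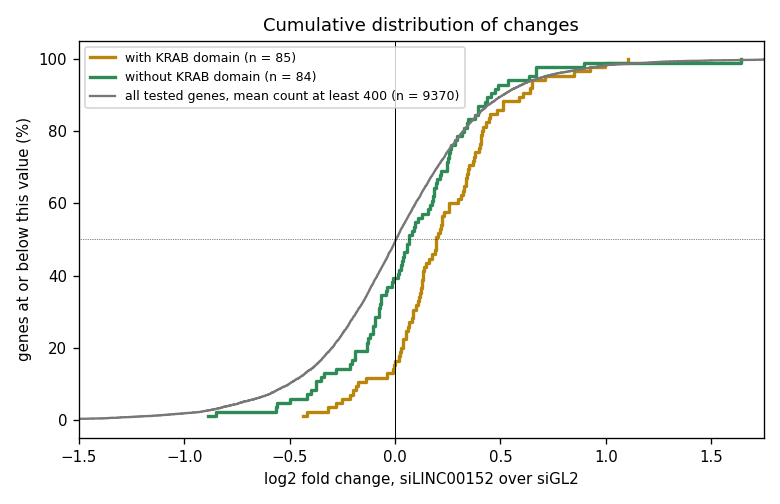
Share of genes at or below each log2 fold change (vertical axis, percent; horizontal axis, siLINC00152 over siGL2) for the 85 members with KRAB, the 84 without and the 9370 tested genes with a mean count of at least 400. The curve of the KRAB members lies furthest to the right around its median of 0.20, beside 0.07 without KRAB and 0.00 for abundant genes.

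Chromosome 19 held 51 members (30.2%), of which 24 rose and 11 fell, with a median log2 fold change of 0.12. On the other chromosomes 62 of 118 rose and 15 fell, with a median of 0.16. Among KRAB members, 20 of 37 on chromosome 19 rose and 6 fell, and 31 of 48 elsewhere rose and 3 fell, with medians of 0.17 and 0.20. The 14 members without KRAB on chromosome 19 had a median of -0.08, with 4 higher and 5 lower, and the 70 without KRAB elsewhere had a median of 0.09, with 31 higher and 12 lower. Chromosome 7 held 19 members, 16 of them with KRAB, of which 14 rose and 1 fell, and its median was 0.33. All 5 members on the X chromosome rose, with a median of 0.30, but the groups of ZNF81 overlapped and ZNF449 was under 400 raw counts in every siGL2 library. Other chromosomes had few calls: 1 of 7 members rose on chromosome 12 (median 0.02), 2 of 7 on 18 (0.04), 1 of 4 on 17 (-0.02) and 0 of 2 on 14 (-0.08). Chromosomes 7 and X were picked from 20 after their values were seen. The share called among all genes of each chromosome was not read. Over all chromosomes, 32.2% of all tested genes rose and 32.2% fell, and 37.0% of abundant genes rose and 35.4% fell.

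Neighbouring members were followed in 22 runs of genes no more than 250 kb apart, which held 74 members. In 14 of the runs at least 2 members were called: in 9 of these all calls were in 1 direction, and in 5 they were in both. Of all member calls 76.8% were rises, so calls in 1 direction are frequent among members wherever they lie. Whether neighbours shared a direction more often than other members was not tested. The longest run, chr19:57191500-58475436 (hg38), held 13 members, of which 9 rose, ZNF584 fell and 3 did not pass. Within it ZNF548 and ZNF417 rose by 0.99 and 0.65, and ZNF134 had 43.3, 45.3 and 46.0 CPM in siLINC00152 libraries against 30.9, 31.0 and 30.8 CPM in siGL2 libraries, a change of 0.54 ± 0.05. ZNF587 in the same run rose by 0.32, but 32.4% of its stretches are shared with other genes and 33.3% of its exonic bases lie opposite another gene. On chromosome 7, all 4 members of chr7:64666083-65006684 rose: ZNF107 by 0.38, ZNF138 by 0.65, ZNF273 by 0.85 and ZNF117 by 0.67. ZNF273 showed this with 12.2, 12.1 and 12.6 CPM in siLINC00152 libraries and 6.68, 6.71 and 7.15 CPM in siGL2 libraries.

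Other runs were uneven. In chr19:52012765-52325922, ZNF432, ZNF841, ZNF616 and ZNF766 rose by 0.61, 0.93, 0.44 and 0.41, while ZNF614 beside them did not pass (0.00 ± 0.06). ZNF614 had 19.5, 20.1 and 21.3 CPM in siLINC00152 libraries and 20.8, 19.7 and 20.3 CPM in siGL2 libraries. In chr7:149126416-149497817, 4 of 6 members rose, by 0.15 to 0.41, and the other 2 did not pass. The run at chr19:11721265-11950773 went the other way, where ZNF440 and ZNF700 fell by 0.28 and 0.44 on the log2 scale and ZNF823 did not pass. ZNF180, at the end of a run of 5 on chromosome 19, had 8.04, 8.64 and 8.34 CPM in siLINC00152 libraries and 11.0, 10.6 and 11.9 CPM in siGL2 libraries, while ZNF224 and ZNF112 in that run rose by 0.31 and 0.34; 39.1% of the stretches of ZNF224 are shared with other genes.

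**Figure D4:**
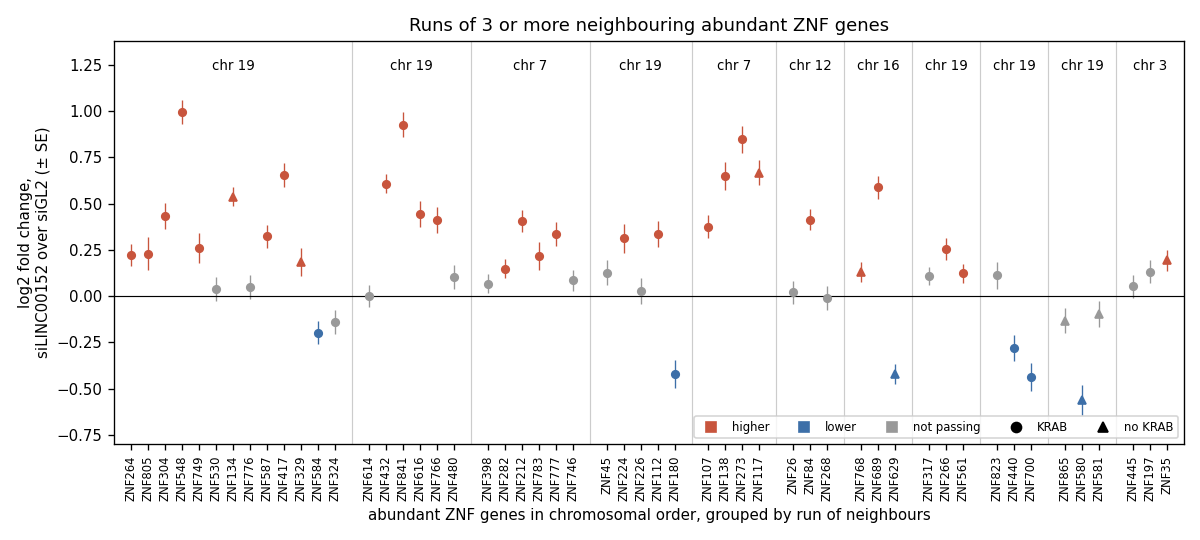
Log2 fold change (vertical axis, siLINC00152 over siGL2, with SE bars) of members in runs of 3 or more neighbours, in chromosomal order along the horizontal axis. All 4 members of the second chromosome 7 run, ZNF107, ZNF138, ZNF273 and ZNF117, lie between 0.38 and 0.85, whereas the chromosome 19 run of ZNF823, ZNF440 and ZNF700 holds 2 genes that fell. ZNF138 and ZNF273 averaged under 400 raw counts in siGL2 libraries.

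ZNF367 fell most. It encodes a small nuclear protein in which 2 fingers were counted. Its level was 30.8, 33.0 and 31.5 CPM in siLINC00152 libraries, against 55.3, 58.4 and 62.9 CPM in siGL2 libraries, so the groups were far apart. The log2 fold change was -0.89 ± 0.06 (edgeR adjusted p = 1.70e-11). ZNF22 had 18.9, 20.7 and 21.6 CPM in siLINC00152 libraries and 34.9, 37.1 and 38.2 CPM in siGL2 libraries, a change of -0.85 ± 0.06, but 40.9% of its stretches are shared, mainly with the pseudogene CEP164P1, and 45.3% of its exonic bases lie opposite another gene. Its reads can therefore be uncertain in origin.

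The other members among the 12 largest falls fell by 0.35 to 0.56 on the log2 scale. ZNF346 (JAZ), which binds double-stranded RNA, had 9.96, 10.02 and 10.2 CPM in siLINC00152 libraries and 14.7, 14.4 and 15.5 CPM in siGL2 libraries. The siLINC00152 values were nearly equal to each other, and the change was -0.56 ± 0.07 (edgeR adjusted p = 2.85e-07). ZNF580 had 9.52, 7.996 and 8.48 CPM in siLINC00152 libraries and 11.9, 12.9 and 13.5 CPM in siGL2 libraries, a change of -0.56 ± 0.08. ZNF629, with 19 fingers, had 29.3, 28.3 and 27.8 CPM in siLINC00152 libraries and 39.0, 37.9 and 37.3 CPM in siGL2 libraries. Neither gene overlapped between the groups, and ZNF580 averaged 363 raw counts in siLINC00152 libraries, under the minimum of 400. ZNF692 fell by 0.37 on the log2 scale, and the KRAB genes ZNF700 and ZNF180 by 0.44 and 0.42. ZNF180 averaged 349 raw counts in siLINC00152 libraries, also under that minimum, and 13.7% of the stretches of ZNF700 are shared. For ZNF593, ZNF710, ZNF428 and ZNF511, which fell by 0.50, 0.40, 0.38 and 0.35, from 13.9% to 81.2% of stretches are shared and from 16.1% to 100% of exonic bases lie opposite other genes, so reads of their neighbours may be included.

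By mean count the most abundant members were ZNF664, ZNF395, ZNF207, ZNF106, ZNF146 and ZNF175. ZNF664 had 226, 240.3 and 242 CPM in siLINC00152 libraries and 247, 249.7 and 245 CPM in siGL2 libraries. Its difference of -0.07 ± 0.04 did not pass (95% confidence interval -0.16 to 0.02, edgeR adjusted p = 0.177), and passed when libraries were scaled by their size alone. ZNF395, a hypoxia-induced factor, had 259, 238 and 249 CPM in siLINC00152 libraries and 188, 179 and 176 CPM in siGL2 libraries, a rise of 0.46 ± 0.05, although 32.1% of its stretches are shared, mainly with FBXO16. ZNF207 (BuGZ), which guards the checkpoint protein BUB3 and loads it at kinetochores, had 172, 177 and 186 CPM in siLINC00152 libraries and 179, 174 and 185 CPM in siGL2 libraries. The groups overlapped, and the 95% interval of its log2 fold change was -0.11 to 0.08.

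ZNF106, an RNA-binding protein needed by mouse motor neurons, had 129.9, 134 and 130.0 CPM in siLINC00152 libraries and 111, 101 and 99.1 CPM in siGL2 libraries, and rose by 0.34 ± 0.05. ZNF146, a protein made almost wholly of fingers, had 116, 129 and 130.1 CPM in siLINC00152 libraries and 99.4, 104 and 105 CPM in siGL2 libraries and rose by 0.28 ± 0.05, with 10.8% of its exonic bases opposite another gene. The KRAB gene ZNF175 (OTK18) went the other way, with 90.6, 100.4 and 94.6 CPM in siLINC00152 libraries against 122, 114 and 121 CPM in siGL2 libraries, a change of -0.32 ± 0.05. Levels were also divided by exonic length, which covers the exons of all annotated transcripts of a gene, not only those expressed. Comparisons between genes on this scale are therefore approximate. Per kilobase of exon, ZNF395 and ZNF664 stood highest, at 42.7 and 37.2 CPM per kb in siLINC00152 cells and 31.1 and 39.0 in siGL2 cells. ZNF503 and ZNF146 followed with 32.2 and 30.2 CPM per kb in siLINC00152 cells and 25.8 and 24.8 in siGL2 cells. The median over members was 4.40 CPM per kb in siLINC00152 cells and 3.88 in siGL2 cells, and the lowest member, ZNF26, had 0.704 and 0.693. Its annotated exons add up to 20863 bases.

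From a list of 35 ZNF genes with an established role, 30 were members, of which 15 rose, 6 fell and 9 did not pass. In either direction, 64.3% of all tested genes and 72.4% of abundant genes were called. Among chromatin regulators, ZNF217, an oncogene of breast cancer that recruits CtBP and CoREST, had 102, 110.4 and 107 CPM in siLINC00152 libraries and 79.6, 72.3 and 75.8 CPM in siGL2 libraries. The groups did not overlap, and it rose by 0.49 ± 0.05 (edgeR adjusted p = 3.03e-08). ZNF644, which recruits the histone methyltransferases G9a and GLP, had 41.3, 45.4 and 47.4 CPM in siLINC00152 libraries and 32.2, 32.8 and 31.7 CPM in siGL2 libraries, a rise of 0.47 ± 0.06. ZNF592 and ZNF687, which form a complex with ZMYND8, rose by 0.24 and 0.25, while the related ZNF532 had 64.3, 65.9 and 67.5 CPM in siLINC00152 libraries and 68.0, 59.7 and 60.9 CPM in siGL2 libraries and did not pass (0.07 ± 0.05), although it rose by 0.13 without siGL2 library A. ZNF687 has 11.0% of its exonic bases opposite another gene. ZNF827, which brings the NuRD complex to telomeres, fell by 0.34 on the log2 scale, with 13.9, 14.4 and 14.3 CPM in siLINC00152 libraries and 17.8, 18.4 and 17.6 CPM in siGL2 libraries.

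Among developmental and promoter factors, ZNF521, a regulator of stem and progenitor cells, rose by 0.30 ± 0.06 with 28.95, 28.94 and 27.1 CPM in siLINC00152 libraries and 23.3, 22.5 and 23.4 CPM in siGL2 libraries. The NET family gene ZNF503 rose by 0.32 ± 0.05, with 11.7% of its stretches shared, while its relative ZNF703 had 16.9, 15.6 and 15.3 CPM in siLINC00152 libraries and 19.2, 18.7 and 16.7 CPM in siGL2 libraries. The groups of ZNF703 overlapped; its fall of -0.19 ± 0.07 (edgeR adjusted p = 0.0184) was lost without siGL2 A, siGL2 B, siLINC00152 B or siLINC00152 C (adjusted p 0.0613 to 0.0879). ZNF148 (ZBP-89), which binds GC-rich promoters, fell by 0.21 on the log2 scale, with 62.0, 64.3 and 64.0 CPM in siLINC00152 libraries and 76.3, 68.6 and 75.5 CPM in siGL2 libraries. ZNF143, an activator that binds promoters and chromatin loop anchors, differed by 0.10 ± 0.06 and did not pass, with 22.8, 23.9 and 24.4 CPM in siLINC00152 libraries and 22.7, 21.2 and 22.6 CPM in siGL2 libraries. ZNF335, part of a histone H3 lysine 4 methyltransferase complex, rose by 0.20 and ZNF706 by 0.17, and both calls were lost when libraries were scaled by their size alone (adjusted p = 0.0545 and 0.0861). ZNF292 rose by 0.22 with overlapping groups, at 99.6, 108 and 111 CPM in siLINC00152 libraries and 99.8, 81.2 and 92.8 CPM in siGL2 libraries, and lost the call without siGL2 library B (0.14, adjusted p = 0.0554). ZNF318 did not pass (0.04 ± 0.06).

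Among the remaining members of that list, which act on RNA, ribosomes or protein modification, ZNF638 rose, ZNF598 and ZNF593 fell and 4 did not pass. ZNF638, which binds RNA and DNA and recruits the HUSH silencing complex, rose by 0.18 ± 0.05, with 95.7, 103 and 101 CPM in siLINC00152 libraries and 88.0, 88.7 and 88.0 CPM in siGL2 libraries. ZNF598, the ubiquitin ligase that marks collided ribosomes, had 27.5, 27.0 and 23.5 CPM in siLINC00152 libraries and 30.0, 30.0 and 29.1 CPM in siGL2 libraries. Its fall of -0.19 ± 0.06 was lost without siLINC00152 library C (-0.12, adjusted p = 0.111), and 10.7% of its exonic bases lie opposite another gene. ZNF622, whose yeast counterpart Rei1 matures the large ribosomal subunit, had 32.8, 33.3 and 32.1 CPM in siLINC00152 libraries and 32.9, 34.8 and 37.3 CPM in siGL2 libraries and did not pass (-0.10 ± 0.06), although it did without siGL2 library A (-0.14, adjusted p = 0.0237). ZNF593, whose yeast counterpart Bud20 acts on the same subunit, had 10.5, 9.83 and 10.5 CPM in siLINC00152 libraries and 13.99, 14.95 and 14.8 CPM in siGL2 libraries. ZNF326, of the DBIRD complex that links transcription to splicing, did not pass (-0.13 ± 0.06, adjusted p = 0.0551), nor did the splicing-associated ZNF830 (-0.04 ± 0.07) or ZNF451, a SUMO ligase (0.03 ± 0.05). The fall of ZNF326 passed under library-size scaling and without siGL2 library A (adjusted p = 0.00527 and 0.0154).

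A SCAN domain was found in 10 members, of which ZNF394, ZNF449 and ZNF215 rose, by 0.34, 0.38 and 0.40, ZNF263 fell and 6 did not pass. Over all tested genes 32.2% rose and 32.2% fell. ZNF215 shares 19.7% and ZNF394 10.4% of stretches with other genes. ZNF263, which carries both SCAN and KRAB, had 13.7, 14.6 and 14.5 CPM in siLINC00152 libraries and 16.6, 16.2 and 15.8 CPM in siGL2 libraries. Its fall of -0.19 ± 0.06 was lost without siLINC00152 library A (-0.15, adjusted p = 0.0503), and 31.1% of its stretches are shared. ZNF24, a SCAN protein that represses VEGFA, had 68.8, 75.6 and 71.0 CPM in siLINC00152 libraries and 81.0, 75.2 and 75.2 CPM in siGL2 libraries and did not pass (-0.10 ± 0.05), although it did without siLINC00152 library B (-0.14, adjusted p = 0.0429). The smallest differences of all members were those of ZNF614, ZNF519, ZNF268 and ZNF207. For ZNF519 the values were 11.96, 11.95 and 13.1 CPM in siLINC00152 libraries and 12.3, 13.6 and 11.2 CPM in siGL2 libraries, with a 95% interval of -0.16 to 0.16.

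The members were also read by their number of fingers. In 6 members no finger was found by the pattern, among them ZNF503 and ZNF703. Members with 0 to 4 fingers had 13 higher and 10 lower of 38, with a median log2 fold change of 0.02, and those with 5 to 9 had 21 higher and 8 lower of 46, with a median of 0.09. With 10 to 14 fingers 33 of 53 rose and 5 fell, and with 15 or more 19 of 32 rose and 3 fell, with a median of 0.20 in both classes. Beside these, 32.2% of all tested genes rose and 32.2% fell, and 37.0% of abundant genes rose and 35.4% fell. Finger number and KRAB overlap, since KRAB members had a median of 12 fingers and the others 7. Within the KRAB members, Spearman's rho across genes between fingers and log2 fold change was 0.03, and without KRAB it was 0.24. For transcript GC content rho was -0.27 over all 169 members, -0.13 with KRAB and -0.32 without, and for exonic length 0.15, -0.08 and 0.34. Over the 9295 annotated abundant genes, rho with exonic length was 0.21. These are descriptions across genes of the same libraries, and genes are not independent replicates.

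Genes of proteins that work with KRAB zinc fingers were read beside them. Of 30 corepressor and heterochromatin genes, 6 rose, 14 fell, and 10 were not called, and the median log2 fold change was -0.09. The 20 calls are 66.7% of the list, near the 64.3% called over all tested genes and under the 72.4% of abundant genes, and the list was chosen with earlier results of these data known. TRIM28 itself had 315, 299 and 293 CPM in siLINC00152 libraries and 366, 365 and 356 CPM in siGL2 libraries. The groups did not overlap, and it fell by 0.26 on the log2 scale (edgeR adjusted p = 2.38e-05). The largest falls were those of UHRF1, which reads hemimethylated DNA (-0.86), the histone-binding RBBP4 (-0.56), the maintenance DNA methyltransferase DNMT1 (-0.45) and TRIM24 (-0.33). UHRF1 had 52.6, 53.0 and 50.3 CPM in siLINC00152 libraries and 102, 91.8 and 88.2 CPM in siGL2 libraries; 18.7% of its stretches and 16.9% of those of RBBP4 are shared with other genes. The largest rises were those of the chromatin remodeller ATRX (0.31), TRIM33 (0.30), the HUSH subunit MPHOSPH8 (0.27) and the HP1 gene CBX5 (0.23). SETDB1 rose by 0.15 (edgeR adjusted p = 0.0328), with 13.4% of its exonic bases opposite another gene. The HP1 genes CBX1 and CBX3 fell by 0.11 and 0.14 on the log2 scale (edgeR adjusted p = 0.0362 and 0.0150). Scaling by library size alone left 4 genes of the list higher and 16 lower.

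Genes of related zinc finger families were read in the same fit, picked by the start of their symbol alone. What each of these genes encodes was not checked. Over all tested genes 32.2% rose and 32.2% fell. Of 120 tested genes in 6 families, 64 rose (53.3%) and 15 fell (12.5%), with a median log2 fold change of 0.21. These were 24 higher and 5 lower of 38 ZBTB genes (median 0.22), 6 and 0 of 18 ZSCAN genes (0.14), 5 and 1 of 7 ZKSCAN genes (0.31), and 5 and 2 of 13 ZFP genes (0.12). Of 14 KLF genes 10 rose and 3 fell (median 0.38), and of 30 genes named ZNF with a number and a letter 14 rose and 4 fell (0.14). Scaling by library size alone left 54 of the 120 genes higher and 19 lower. Among the 306 ZNF number genes under 400 mean counts, 188 were tested: 65 rose (34.6%), 26 fell (13.8%), and 97 were not called. Their median was 0.11. Summed over all 306, the TMM-scaled level was 7.10% higher in siLINC00152 libraries. The TMM factors widened this difference, as they did for the members. Of the 188 tested, 52 of 135 with KRAB rose and 16 fell (median 0.15), and 13 of 53 without KRAB rose and 10 fell (median 0.00).

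The minimum of 400 counts cuts through a continuous range. Just inside it, ZNF250, ZNF287 and ZNF449 averaged 400.3, 401.2 and 403.3 counts, and just outside, ZNF17, ZNF484 and ZNF136 averaged 399.7, 398.7 and 394.0. The log2 fold changes were -0.25, -0.04 and 0.38 for the 3 inside and 0.44, 0.19 and -0.61 for the 3 outside. Reads can also be uncertain where genes share sequence: 71 members share no 75-base stretch with another gene on either strand, and 33 share over 10%. Sharing includes genes annotated at the same place, such as an antisense gene. It is therefore not a count of members with near-identical copies elsewhere. Of the 136 members with at most 10% shared, 71 rose and 18 fell, with a median of 0.16.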

How the data were processed

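Polyadenylated RNA of U87 cells was measured by paired-end RNA sequencing in 6 libraries, 3 per group, made with a directional kit, per the labels' protocols. The authors deposited raw counts per gene, 1 table per library; per the submitters' processing notes, bcl2fastq, HISAT, HTSeq, DESeq and build hg38 were used. The gene annotation, the strandedness of counting and the treatment of reads with several matches were not given in the sources used here. The members and the gene lists were chosen with earlier results of these data known.

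All 27192 genes were read, and 14078 passed edgeR's filterByExpr. They were fitted with TMM scaling and edgeR's quasi-likelihood test (edgeR 4.0.16, limma 3.58.1, R 4.3.3), two-sided, with Benjamini-Hochberg adjustment over all tested genes and a threshold of 0.05; intervals are 95% and cover the model error only. CPM are TMM-scaled, and the 3-count floor covers counting error only. The depth gave a median SE of 0.06 for a log2 fold change over all tested genes. Alternatives were DESeq2 1.42.0, other scalings, no filter, a replicate block, leaving out each library and minimum counts of 200 and 800; restricting members by shared stretches and by opposite-strand bases was added after seeing the data. The labels do not say whether the replicate letters pair libraries across groups, and same-letter libraries did not deviate together for every letter, so the main fit has no block.

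The deposited symbols were matched to GENCODE 29, which matched all 169 members. Sharing is the percentage of 75-base stretches of a gene's transcripts that occur in another gene on either strand; 25 members have over 10% of exonic bases opposite another gene. Fingers, KRAB and SCAN domains were found in translated GENCODE coding sequences, by pattern and, for KRAB and SCAN, by a position weight matrix with a limit of 10 bits, a method chosen after the files were seen. Promoters came from RefSeq (GRCh38.p14).

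Named genes are the 12 largest rises and falls called without overlap, the 6 most abundant, the 4 smallest changes, the 3 on each side of 400 counts, the list with established roles, and TRIM28 with the 4 largest partner changes each way; genes named for a run, a domain or a marker were chosen after their values were seen. Counts and medians of lists are descriptions. Python 3.11.15, numpy 2.4.6, pandas 2.3.3 and matplotlib 3.10.9 were used.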

Additional observations from a re-analysis of the deposited data

How the results depend on the processing

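Scaling by library size alone gave medians of 0.081 for all members, 0.13 with KRAB and -0.000733 without KRAB, against 0.15, 0.20 and 0.07. A minimum mean count of 800 left 11 members lower and 59 higher, with medians of 0.19 over all members, 0.21 with KRAB and 0.13 without. Restricting to members with at most 10% shared stretches, or at most 10% opposite-strand bases, both chosen after seeing the data, gave a median without KRAB of 0.088 and 0.0800. Leaving out each library in turn gave 75 to 90 members higher and 21 to 27 lower, medians of 0.14 to 0.15 over all members, 0.18 to 0.20 with KRAB and 0.049 to 0.108 without, and a LINC00152 change of -2.56 to -2.45. Over the same fits, 54 to 64 related family genes were higher and 12 to 15 lower, and 5 to 7 partner genes higher and 10 to 15 lower. A replicate block, with letters whose deviations correlated at 0.157, -0.104 and 0.211, gave 86 members higher and 27 lower, and called ZNF326 lower (-0.13, adjusted p = 0.0352). Of the 112 member calls, 86 were kept in all the alternative fits over the same genes, and no call changed its sign. Of 770 values of named genes, 9 lost and 9 gained the call and 0 reversed. The causes of these shifts were not tested. Depth was 400.3 to 403.3 mean counts for the 3 members nearest the minimum, whose SEs were 0.07 to 0.08.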
